A study of Saccharomyces cerevisiae with 12 samples.

Results

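The 37 genes described here take up iron, or work beside its uptake, in the budding yeast Saccharomyces cerevisiae. They were chosen by gene name from the 6078 names in the tables, and all 37 were present and tested in every comparison. By role they comprise 6 genes of reductive iron uptake, 3 low-affinity or broad metal carriers, 9 genes of siderophore uptake, 6 carriers, oxidases and reductases linked to the vacuole, 3 other reductase-like genes, 4 regulators, 4 genes of mitochondrial iron and cluster assembly and 2 copper transporters of the plasma membrane. RNA was sequenced from 12 libraries, 3 for each of 4 groups. All came from the BY4741 background, which is MATa with the his3Δ1, leu2Δ0, met15Δ0 and ura3Δ0 alleles, and were grown in rich YPD medium at 30 °C to mid-log phase. The groups were wild-type cells in air, wild-type cells in hypoxia, set4Δ cells in air and set4Δ cells in hypoxia, where hypoxia means 18 h of growth in sealed anaerobe pouches. The set4Δ cells carried set4Δ::HIS3MX, a replacement of the gene for the chromatin protein Set4 by a marker cassette, in 1 strain, so that the deletion and any other difference of that strain cannot be told apart. The labels number replicates without saying whether they were separate cultures, and the p-values measure only the spread between these libraries.

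Budding yeast takes up iron by several routes. Ferric iron is reduced at the cell surface by the Fre reductases and carried in by a complex of the copper-containing oxidase Fet3, which uses oxygen, and the permease Ftr1, while iron bound to siderophores enters through the transporters Arn1, Arn2, Sit1 and Enb1, helped by the Fit mannoproteins of the cell wall. The transcription factors Aft1 and Aft2 turn these genes on when iron, or the iron-sulfur cluster synthesis of mitochondria, runs short, and the copper sensor Mac1 turns on CTR1, FRE1 and FRE7 when copper runs short.

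The values are normalized counts, which are reads per gene divided by a size factor of the library. The libraries held 18786063 to 27572324 counted reads, and members had between 124 reads (FRE7) and 39124 reads (FET3) in a library. SET4 stood at 161, 217 and 199 normalized counts in wild-type cells in air and 5291, 4898 and 8574 in hypoxia, against 0, 3.78 and 0 and 21.2, 16.6 and 26 in set4Δ cells. MATa genes were present in every library (STE2, the alpha-factor receptor, at 3482 to 13149 normalized counts), whereas STE3, the receptor of the other mating type, stood at 18.6 to 51.1, and library 3 of set4Δ cells in hypoxia held more STE2 than the others of its group (8307 against 4062 and 4168). Libraries of a group did not share the members evenly. In wild-type cells in air, library 1 was the highest of the 3 for 31 of 37 members (38.6% of all genes), and in hypoxia library 3 was the lowest for 26 of 37 members in wild-type cells (38.4% of all genes) and for 26 of 37 in set4Δ cells (45.8%). In RNA of whole cultures, less RNA of a gene in every cell and fewer cells with it cannot be told apart.

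Many of the promoters hold a short word. The members were chosen by name as iron genes, which include genes that Aft1 and Aft2 turn on. The share of the word among them is thus not independent of that choice. The 500 bases before the start codon were read from the RefSeq R64 assembly for all 37 members and searched on both strands for the Aft1 and Aft2 word TGCACCC. It occurred in 22 of 37 members (59.5%) and in 140 of 6002 protein-coding genes (2.33%). When its relative TACACCC was also taken, and further CGCACCC together with the word CACACCC, the counts were 27 members (73%) and 8.78% of all genes. All 9 genes of siderophore uptake held the strict word, and of the 10 genes of regulators, mitochondrial iron and plasma membrane copper uptake only TIS11 and ISU1 did. Stretches of 5 genes with this word are shown, because FET3, ENB1 and FIT2 fell in hypoxia, ISU1 rose and SIT1 differed between the genotypes. Each is written 5′ to 3′ in the direction of the gene, with the word or its reverse complement GGGTGCA in capitals and everything else in lower case. They lie at chrXIII:388552-388671 (plus strand), chrXV:21402-21521 (minus strand), chrXV:1059251-1059410 (plus strand), chrV:27447-27566 (plus strand) and chrXVI:297283-297402 (plus strand).
FET3: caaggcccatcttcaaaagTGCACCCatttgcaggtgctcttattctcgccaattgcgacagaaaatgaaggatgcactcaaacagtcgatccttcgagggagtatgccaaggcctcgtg
ENB1: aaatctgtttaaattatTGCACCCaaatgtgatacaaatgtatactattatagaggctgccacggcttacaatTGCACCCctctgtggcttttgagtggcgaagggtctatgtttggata
FIT2: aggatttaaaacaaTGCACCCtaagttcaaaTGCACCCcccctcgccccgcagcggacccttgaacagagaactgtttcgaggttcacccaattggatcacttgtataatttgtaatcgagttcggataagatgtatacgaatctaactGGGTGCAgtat
SIT1: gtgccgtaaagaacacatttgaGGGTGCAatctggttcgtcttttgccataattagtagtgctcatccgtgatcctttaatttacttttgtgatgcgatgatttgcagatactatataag
ISU1: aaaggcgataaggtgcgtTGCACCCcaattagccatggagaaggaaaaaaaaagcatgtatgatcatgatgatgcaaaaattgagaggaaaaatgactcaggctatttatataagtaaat
In FET3 and ISU1 the word stood at nearly the same place, with its first base 251 and 252 bases before the start codon. ENB1 held 2 copies in the stretch, and FIT2 held 3 there and another further upstream.

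The Mac1 word TTTGCTC was found in the same windows of 4 members (10.8%), which were FRE1, CTR1, FTR1 and ENB1, and in 8.61% of all genes. FRE1 and CTR1 held it more than once. Their stretches, at chrXII:568267-568476 and chrXVI:785858-785977 (both plus strand), are shown because these genes fell furthest in hypoxia. Only TTTGCTC and its reverse complement GAGCAAA are in capitals. A further copy in FRE1 begins 96 bases before the start codon. The printed stretch ends inside that copy, which therefore stays in lower case.
FRE1: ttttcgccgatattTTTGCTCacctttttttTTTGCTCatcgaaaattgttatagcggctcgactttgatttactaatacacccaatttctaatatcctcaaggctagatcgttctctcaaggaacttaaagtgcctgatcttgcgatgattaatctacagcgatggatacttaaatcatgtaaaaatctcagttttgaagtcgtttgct
CTR1: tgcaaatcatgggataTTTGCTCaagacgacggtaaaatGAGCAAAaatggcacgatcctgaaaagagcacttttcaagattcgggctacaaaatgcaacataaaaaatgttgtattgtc
The Rox1 core ATTGTT, searched in the same way because Rox1 represses hypoxic genes in air, was in 18 of 37 members (48.6%) and in 48.9% of all genes. A word in these windows is a description of letters and not of a bound site.

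**Figure D1:**
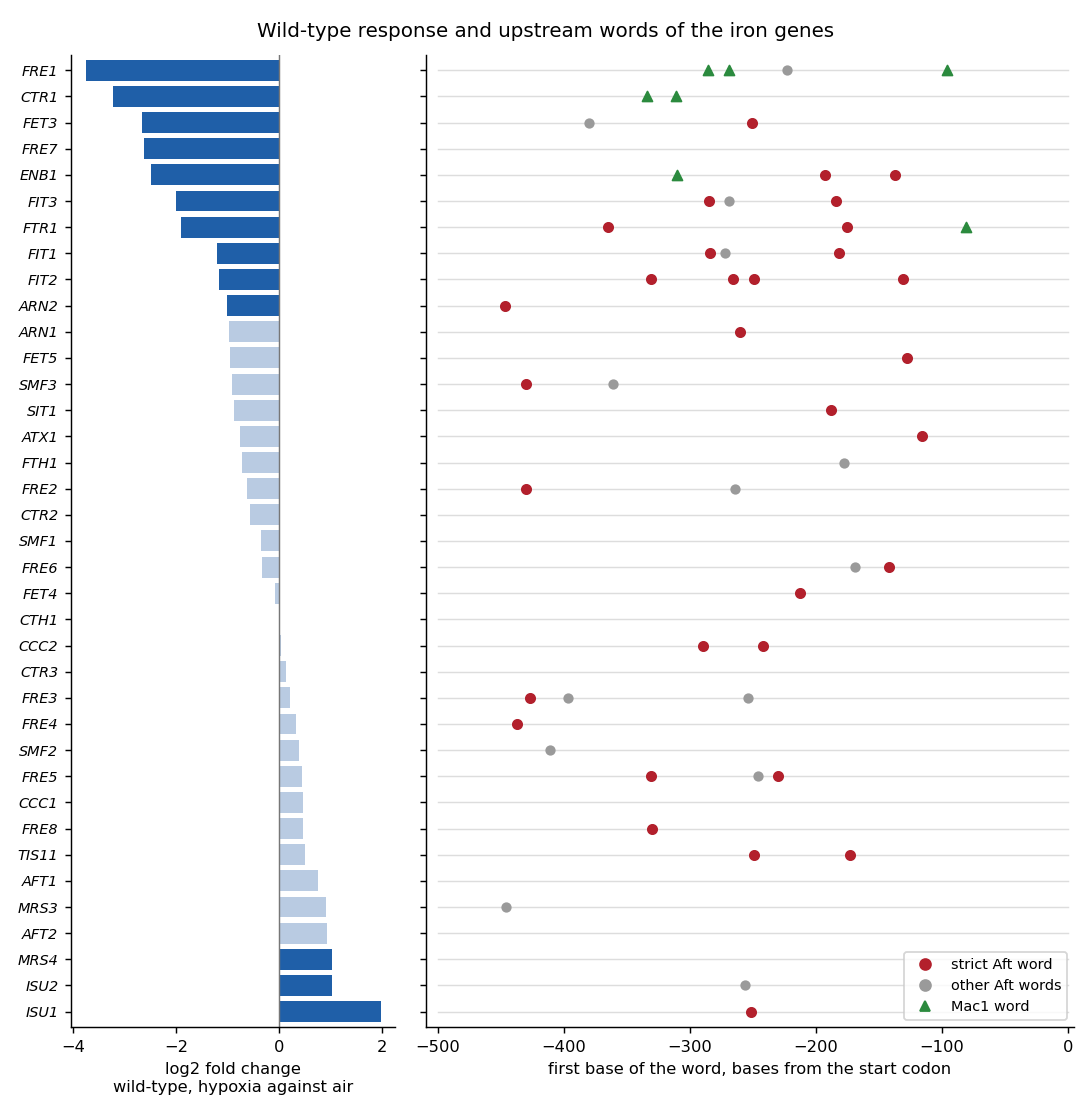
Wild-type response of each of the 37 members (left, log2 fold change of hypoxia against air, dark bars for called genes) and places of the words before the start codon (right, in bases; red circles for TGCACCC, grey circles for the other 3 Aft words, green triangles for the Mac1 word, both strands). The red circles occur both among the genes that fell and beside ISU1, the gene that rose most, and the green triangles lie in 4 genes of the upper part of the plot.

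In wild-type cells in hypoxia, 3 of 6 genes of reductive iron uptake (FET3, FTR1 and FRE1) and 5 of 9 genes of siderophore uptake were called lower, and 3 of 4 genes of mitochondrial iron and cluster assembly (ISU1, ISU2 and MRS4) were called higher. A gene was called in such a response when limma's test gave an adjusted p of at most 0.05 (Benjamini-Hochberg over all genes of the table) and the log2 fold change was at least 1 in size. By this rule 10 of the 37 members were lower, where 14.4% of all genes were, and 3 were higher, where 18.1% of all genes were. Over both directions 13 of 37 members were called, against 32.5% of all genes, a share near the background. Without the fold threshold, 20 members were lower (39.5% of all genes) and 12 higher (40%), together 32 of 37 against 79.5% of all genes. The median log2 fold change was -0.36 over the members and within 0.01 of 0 over all genes.

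FRE1, the main surface reductase for iron and copper, fell furthest. Its normalized counts were 12892, 11317 and 11329.9 in the 3 air libraries and 877, 919 and 836 in the 3 hypoxic ones. Every hypoxic library lay far below every air library, with a log2 fold change of -3.75 (standard error, SE, 0.08; adjusted p = 2.17e-08) and a ratio of means of 13.5. FRE2, a further surface reductase, had low counts in air and changed less. Its log2 fold change was -0.63 (adjusted p = 0.000332), with 353 to 403 normalized counts in air and 227 to 259 in hypoxia.

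FET3, the oxidase of the uptake complex, was the most abundant member in air. It fell from 35930.0, 33126 and 31610.1 normalized counts to 6199, 5556 and 4354, and the groups lay far apart. The log2 fold change was -2.66 (SE 0.13, adjusted p = 5.59e-07), a 6.25-fold fall of the mean. Its partner FTR1, the permease, fell less, from 10164, 8688 and 8608 to 2724, 2347 and 2241, a log2 fold change of -1.91 (SE 0.10, adjusted p = 7.3e-07). The ratio of FET3 to FTR1 counts was thus 3.54 to 3.81 in air and 1.94 to 2.37 in hypoxia, with no overlap. The copper that Fet3 needs is delivered by the chaperone Atx1 and the pump Ccc2. ATX1 had a log2 fold change of -0.76 (adjusted p = 0.00677), short of the fold threshold, and CCC2 stood at 1780 to 1947 normalized counts in air and 1806 to 1993 in hypoxia, a difference of 0.04 with a 95% interval of -0.11 to 0.20.

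Among the genes of siderophore uptake, 5 of 9 were called lower and none higher, where 14.4% and 18.1% of all genes were. ENB1, the transporter of the bacterial siderophore enterobactin, fell from 7389, 7172 and 6644 to 1413, 1324 and 1071 normalized counts, a log2 fold change of -2.48 (SE 0.11, adjusted p = 3.32e-07). The other transporters moved less. ARN2, for the siderophore triacetylfusarinine, stood at 4733, 4093 and 3681 in air and 2458, 2174 and 1635 in hypoxia, and its log2 fold change of -1.01 (SE 0.15, adjusted p = 0.000405) only just passed the threshold. ARN1, for ferrichrome-type siderophores, went from 3315, 2916 and 2864 to 1774, 1573 and 1305 and SIT1, for ferrioxamines, from 7756, 7021 and 6707 to 4633, 3782 and 3397. In all 4 genes the groups did not overlap, but the log2 fold changes of ARN1 and SIT1, -0.98 and -0.87, came short of the threshold (adjusted p = 8.84e-05 and 0.000179). SIT1 and ENB1 had nearly equal counts in air, with ratios of 0.979 to 1.05, and SIT1 had 2.86 to 3.28 times those of ENB1 in hypoxia.

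The FIT genes, which encode cell wall mannoproteins that hold siderophores near the membrane, fell together but unevenly between libraries. FIT3 went from 8079, 7992 and 6829 to 2721, 1974 and 1259 normalized counts, FIT2 from 3081, 2854 and 2564 to 1479, 1394 and 953 and FIT1 from 854, 839 and 656 to 453, 429 and 191. Library 3 was the lowest of its group for all of them in both conditions, and in hypoxia it stood well below library 1 for FIT1 and FIT3. The log2 fold changes were -2.01 (SE 0.24, adjusted p = 9.55e-05) for FIT3, -1.17 (SE 0.16, adjusted p = 0.000208) for FIT2 and -1.22 (SE 0.31, adjusted p = 0.00631) for FIT1. Without library 3 of wild-type cells in hypoxia, FIT2 (-0.98), FIT1 (-0.82) and ARN2 (-0.84) dropped below the fold threshold with adjusted p-values of 4.19e-06, 0.000158 and 5.77e-05, and 7 members instead of 10 were called lower. ARN2 also did so without library 1 of wild-type cells in air (-0.91). FIT1 holds repeated sequence, with 11.9% of its words of 50 bases found more than once in the genome, and whether it shared reads with other places was not tested. FRE3 and FRE4, reductases for iron in siderophores, were not lower. FRE3 differed by 0.20 (adjusted p = 0.131) and FRE4 was higher by 0.32 on the log2 scale (adjusted p = 0.00373).

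Vacuolar genes differed in both directions without passing the fold threshold. FET5 and FTH1, the oxidase and permease that move iron out of the vacuole, had log2 fold changes of -0.95 and -0.71, and SMF3, a further exporter of vacuolar iron, of -0.92 (adjusted p = 3.51e-06, 2.12e-05 and 3.82e-06). CTR2, the vacuolar copper exporter, and FRE6, a vacuolar reductase, had -0.57 and -0.33 (adjusted p = 9.23e-05 and 0.00127). CCC1, which carries iron into the vacuole, went the other way, from 629, 602 and 550.2 to 927, 839 and 695 normalized counts, a log2 fold change of 0.46 (adjusted p = 0.00602). Thus 5 of the 6 were lower and 1 was higher by the adjusted p alone, where 39.5% and 40% of all genes were. Either way that is all 6, against 79.5% of all genes, a rule that most genes passed. None of the 6 had groups that overlapped, which also held for 82.7% of all genes.

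Among the carriers of low affinity or broad specificity none was called, and only SMF1 was lower by the adjusted p alone. FET4, a low-affinity carrier of ferrous iron that Rox1 represses in air, stood at 5556, 5019 and 4800.0 normalized counts in air and 5026, 4268 and 5303 in hypoxia. The groups overlapped and the log2 fold change was -0.08 with a 95% interval of -0.30 to 0.15, turning to 0.061 with quantile normalization. SMF2, a manganese carrier of internal membranes, was higher by 0.38 on the log2 scale (adjusted p = 0.000332), and SMF1, a manganese carrier that also moves iron, had a log2 fold change of -0.36 (adjusted p = 0.0248).

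Of the 2 copper transporters of the plasma membrane, 1 was called lower, where 14.4% of all genes were. CTR1, the high-affinity copper transporter, went from 8715, 7889.8 and 7309 to 894, 747 and 910.3 normalized counts, a 9.37-fold fall of the mean and a log2 fold change of -3.23 (SE 0.10, adjusted p = 7.92e-08). CTR3, a further copper transporter that a Ty element in its promoter silences in strains related to BY4741, stood low at 160 to 170 normalized counts in air and 173 to 192 in hypoxia, with a change of 0.13 (adjusted p = 0.235) that turned to -0.37 with quantile normalization. FRE7, a reductase-like gene under Mac1, fell from 1087, 979 and 919 to 178, 196 and 116, a log2 fold change of -2.63 (SE 0.19, adjusted p = 3.92e-06). The other reductase-like genes, FRE5 and FRE8, were higher by 0.44 and 0.47 on the log2 scale (adjusted p = 0.00568 and 0.000425), short of the fold threshold, as was FRE4.

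Of the mitochondrial genes, 3 of 4 were called higher, where 18.1% of all genes were, and MRS3 was not. ISU1 and ISU2 encode the scaffold on which iron-sulfur clusters are built, and MRS3 and MRS4 the carriers that bring iron into mitochondria. ISU1 rose from 2475, 2385 and 2338 to 9541, 11956 and 7262 normalized counts, the largest rise of any member, with a log2 fold change of 1.97 (SE 0.16, adjusted p = 8.26e-06). Its hypoxic libraries differed among themselves, library 2 being the highest and library 3 the lowest, but all lay above every air library. ISU2 rose from 1784, 1757 and 1731 to 3458, 3850.0 and 3484, a log2 fold change of 1.03 (SE 0.06, adjusted p = 2e-06). Its call was lost without library 2 of wild-type cells in hypoxia, where the log2 fold change was 0.98. In air ISU1 had 1.35 to 1.39 times the counts of ISU2, and in hypoxia 2.08 to 3.11 times. MRS4 rose from 662, 765 and 678 to 1613, 1426 and 1254 normalized counts, a log2 fold change of 1.02 (SE 0.11, adjusted p = 3.59e-05) that lies near the threshold. Its call was lost with quantile normalization (0.92) and without library 1 (0.98) or 3 (0.9993) of wild-type cells in air or library 1 in hypoxia (0.93). MRS3 went from 757, 702 and 667 to 1305, 1342 and 1327, and its 0.90 (adjusted p = 6.3e-06) came short of it.

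The genes of the regulators themselves were not lower. AFT2 went from 615, 567 and 609 to 1115, 1137 and 1159 normalized counts, a log2 fold change of 0.93 (adjusted p = 4.02e-06), and AFT1 from 1671, 1745 and 1777 to 2996, 3106 and 2630.1, one of 0.75 (adjusted p = 3.65e-05). TIS11, also called CTH2, encodes a protein that degrades mRNAs of iron-using proteins when iron is short and is itself a target of Aft1. It was higher by 0.50 on the log2 scale (adjusted p = 0.000623). CTH1, its relative, differed by -0.01 with a 95% interval of -0.22 to 0.20, and by 0.076 when libraries were scaled to equal totals. None of the 4 passed the fold threshold, but AFT2 did so when libraries were scaled to equal totals (1.01).

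**Figure D2:**
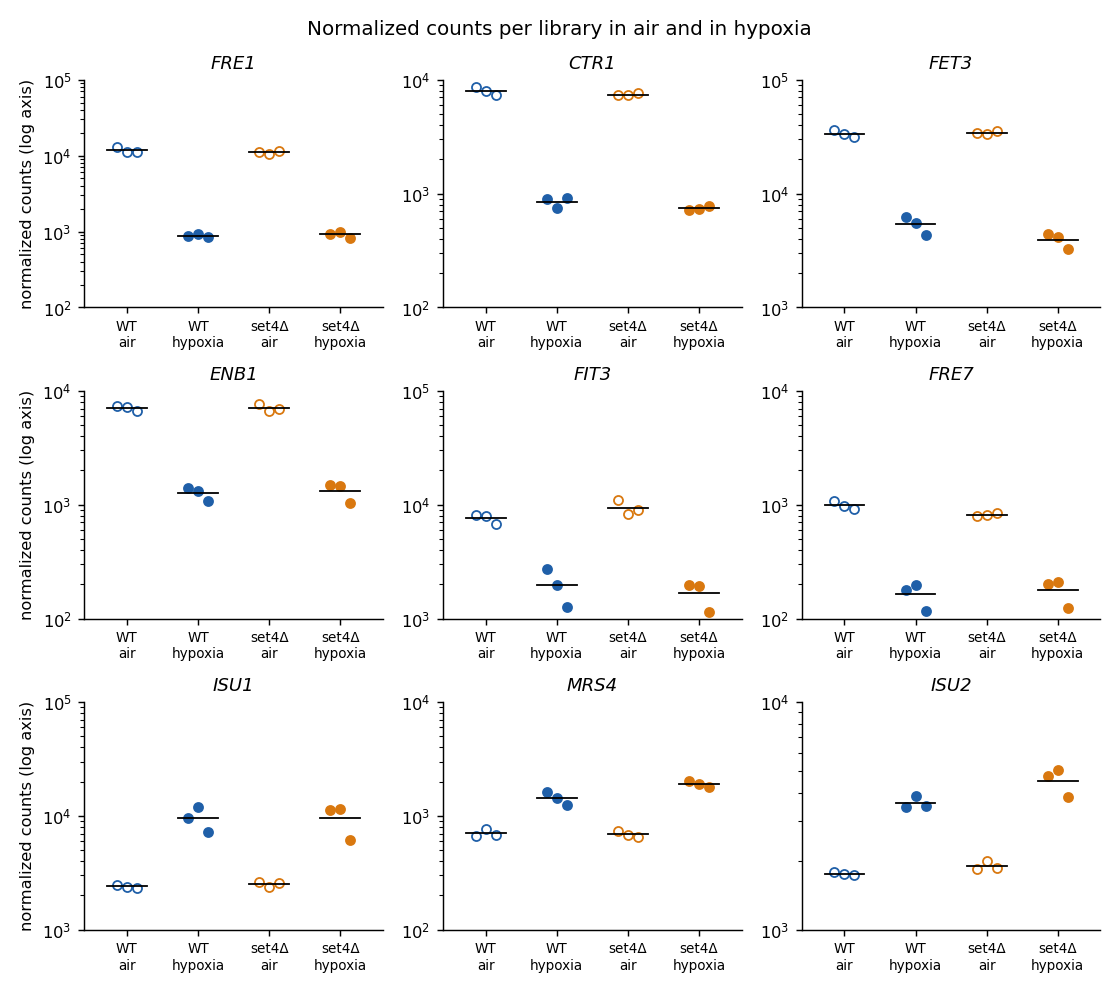
Normalized counts per library (log axis) of 9 members in wild-type (blue) and set4Δ cells (orange), open circles for air and filled circles for hypoxia, with black lines at the mean of the 3 libraries; the 2 genotypes come from tables normalized separately. In all 9 panels the air and hypoxic libraries of a genotype do not overlap. Within hypoxia the library drawn on the right, library 3, lies lowest for FRE1, FET3, ENB1, FIT3, FRE7, ISU1 and MRS4 in both genotypes.

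In set4Δ cells the members called in hypoxia were nearly those of wild-type cells. Of the 37 members, 9 were called lower, where 15.5% of all genes were, and 4 higher, where 18.6% of all genes were. Over both directions that is 13 of 37 against 34.1% of all genes, again near the background. All 9 were among the 10 lower in wild-type cells, ARN2 being the exception at -0.70 (adjusted p = 0.0146), and the 4 higher were the 3 of wild-type cells and AFT2. The comparisons use different libraries throughout. Without the fold threshold, 18 members were lower (39.8% of all genes) and 13 higher (39.6%), together 31 of 37 against 79.4% of all genes, and the median over the members was -0.37.

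FRE1 fell from 11334, 10442 and 11621 to 941, 988 and 829 normalized counts in set4Δ cells, a log2 fold change of -3.60 (SE 0.09, adjusted p = 5.58e-08). CTR1 fell from 7315, 7319.5 and 7571 to 723, 729 and 775, one of -3.32 (SE 0.06, adjusted p = 2.3e-08), and its 3 libraries lay closer together than in wild-type cells in both conditions. FET3 fell from 33921, 33474 and 35126 to 4412, 4146 and 3266, one of -3.13 (SE 0.12, adjusted p = 4.34e-07). These 3 genes again had the largest falls, and none of their groups overlapped.

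FTR1 fell from 8279, 9164 and 9538 to 2905, 2793 and 2433 normalized counts, with a log2 fold change of -1.73. ENB1 fell from 7735, 6617 and 6874 to 1491, 1462 and 1045, with -2.42, and FRE7 from 789, 806 and 844 to 203, 211 and 124, with -2.21. The cell wall genes fell too, FIT3 from 11077, 8249 and 8904 to 1978, 1944 and 1154 (-2.51), FIT1 from 1091, 681 and 933 to 275, 344 and 178 (-1.78) and FIT2 from 4242, 3052 and 3208 to 1616, 1554 and 1168 (-1.27). Library 3 was the lowest hypoxic library for all 6. Adjusted p-values of these 6 genes lay between 2.04e-06 for FTR1 and 0.000335 for FIT1. SIT1 was the clearest departure. Its normalized counts were 7101, 6359 and 6945 in air and 6956, 6853 and 6218 in hypoxia. The groups overlapped, and the log2 fold change was -0.03 with a 95% interval of -0.22 to 0.17, turning to 0.20 with quantile normalization.

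Among genes that rose in set4Δ cells, ISU1 went from 2603, 2367 and 2559 to 11160.3, 11413 and 6140.3 normalized counts, a log2 fold change of 1.88 (SE 0.22, adjusted p = 0.000113), with library 3 well below the others. MRS4 rose from 736, 677 and 648 to 2014, 1913 and 1808, one of 1.48 (SE 0.08, adjusted p = 1.61e-06), and ISU2 from 1843, 2001 and 1861 to 4709, 5025 and 3821, one of 1.24 (SE 0.11, adjusted p = 2.08e-05). AFT2 rose from 582, 595 and 636 to 1513, 1465 and 1499, a log2 fold change of 1.30 (SE 0.07, adjusted p = 1.39e-06), which placed it past the fold threshold that it missed in wild-type cells. With libraries scaled to equal totals, AFT2 passed that threshold in wild-type cells too (1.01). MRS3 and AFT1, with log2 fold changes of 0.99 and 0.87, came short of it (adjusted p = 3.72e-05 and 5.18e-05). FET4 again showed no detectable change (0.09, 95% interval -0.14 to 0.33), and ATX1, with -0.59, had an adjusted p of 0.0552.

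**Figure D3:**
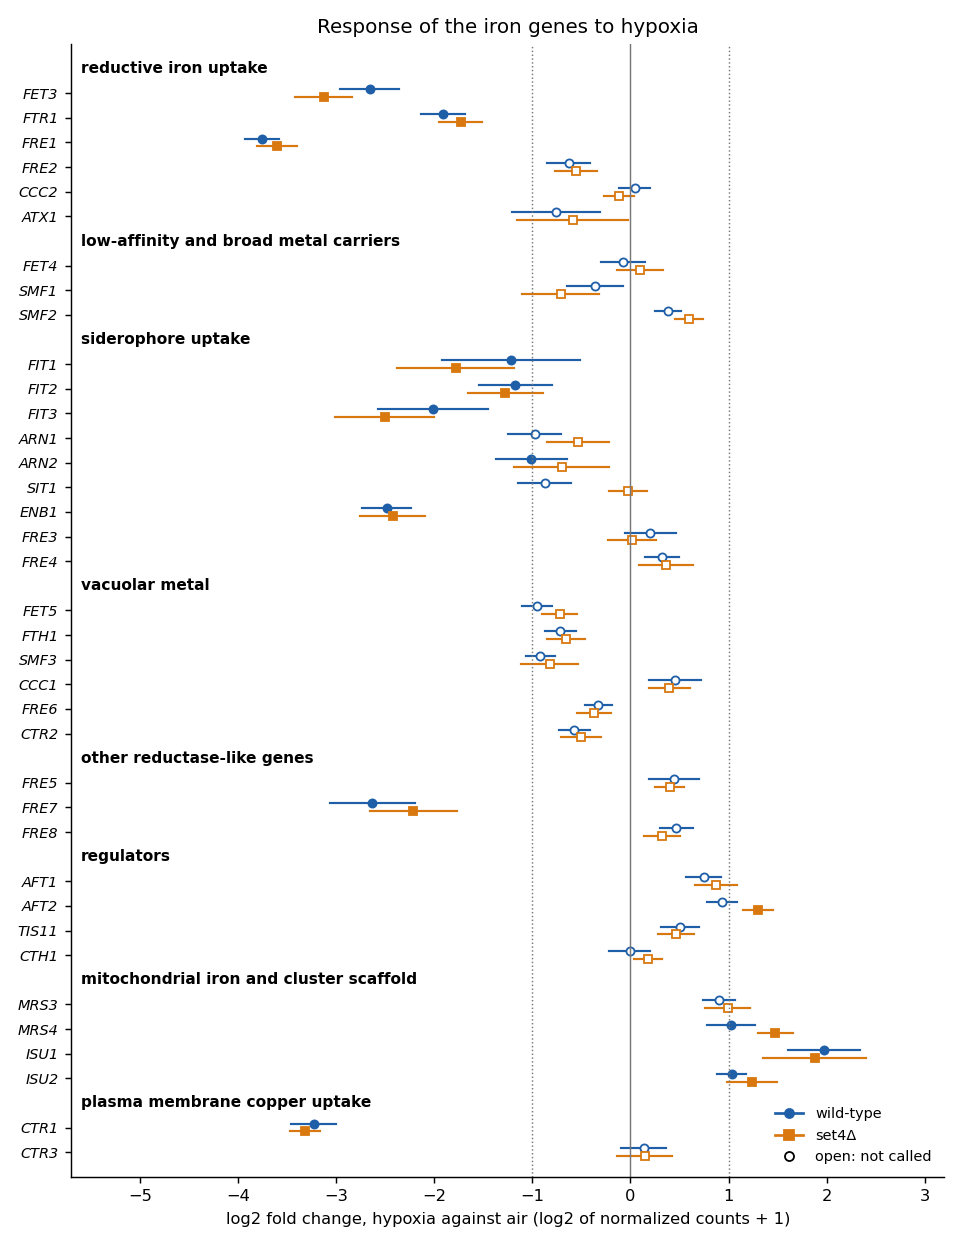
Log2 fold change of hypoxia against air for the 37 members by role, in wild-type (blue circles) and set4Δ cells (orange squares), with 95% intervals from limma and 3 libraries per group; filled symbols are called genes and dotted lines mark a log2 fold change of 1 in size. FRE1, CTR1 and FET3 lie furthest left in both genotypes and ISU1 furthest right, and SIT1 lies at -0.87 in wild-type and at -0.03 in set4Δ cells.

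The members changed the order of their levels. Per kilobase of coding length, with all 12 libraries on 1 scale, FET3 led in wild-type cells in air with 17716 ± 1112 normalized counts per kb (SD, n = 3), followed by FIT3 with 12523 ± 1126 and FTR1 with 7601 ± 707. ISU1 was the 7th of the 37 with 4862 ± 129. In hypoxia ISU1 led with 19502 ± 4779 and ISU2 came next with 7738 ± 471, while FET3, at 2847 ± 498, was the 5th and FRE1 the 30th. In set4Δ cells in hypoxia the leaders were ISU1 with 19038 ± 5887, ISU2 with 9505 ± 1295 and SIT1 with 3506 ± 204, and FET3 was the 10th. Many neighbours in these orders did not differ beyond their spread, since the ranges of the 3 libraries overlapped in 22 of 36 neighbouring pairs in wild-type cells in air, 29 of 36 in wild-type cells in hypoxia and 26 of 36 in set4Δ cells in hypoxia. The members together held 0.566% to 0.604% of all normalized counts of wild-type cells in air and 0.282% to 0.341% in hypoxia, and FET3 made up 25.0% to 25.1% of that sum in air and 7.05% to 8.48% in hypoxia.

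In air the iron genes of set4Δ cells lay close to those of wild-type cells. No member was called between set4Δ and wild-type cells in air at an adjusted p of at most 0.05 in limma's test, where 0.0516% of all genes were. At an unadjusted p of at most 0.05 there were 4 members, against 4.82% of all genes, and edgeR called none and DESeq2 called 1. The median log2 fold change over the members was -0.02, and the 37 values ran from -0.33 to 0.26. FRE7 had the lowest. Its normalized counts were 1129, 1020.4 and 963 in wild-type and 804, 807 and 866 in set4Δ cells, with every set4Δ library below every wild-type library, and the log2 fold change was -0.33 (SE 0.07, adjusted p = 0.234). It was the gene that DESeq2 called (adjusted p = 0.0484), and its adjusted p was 0.122 or higher in all other fits. FIT3 and FIT2 were higher by 0.26 and 0.26 with groups that overlapped (adjusted p = 0.989 for both), library 1 of set4Δ cells being the highest. For FET3 and FRE1 the 95% intervals of the log2 difference were -0.14 to 0.12 and -0.26 to 0.01.

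In hypoxia the genotypes differed more in single members. No member passed the adjusted p of 0.05 in limma's test, where 1.21% of all genes were called, but SIT1 and AFT2 came very near it. At an unadjusted p of at most 0.05 there were 8 members against 13.2% of all genes, 7 of them higher and 1 lower, where all genes gave 6.59% in each direction. The libraries of the genotypes did not overlap for 9 members, against 19.6% of all genes, with 7 higher (9.57% of all genes) and 2 lower (10%). edgeR called 1 member, AFT2, and DESeq2 called 3, SIT1, AFT2 and MRS4, all higher in set4Δ cells. The fit over all 12 libraries called the same 3, and robust estimation called AFT2. With the replicate number as a block, 5 members were called higher (SIT1, AFT2, MRS4, ARN1 and ARN2) and 1 lower (FET3). That fit called 238 and 198 of all 5875 genes, and the labels do not say whether the numbers pair samples. The median over the members was 0.11, and 25 of the 37 values were above 0.

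SIT1 stood at 4548, 3724 and 3323 normalized counts in wild-type and 6709, 6566 and 6064 in set4Δ cells in hypoxia. The lowest set4Δ library lay well above the highest wild-type library. The log2 fold change was 0.75 (SE 0.13, adjusted p = 0.0503), a ratio of means of 1.67. In air its counts were 8052, 7314 and 7026 in wild-type and 7232, 6364 and 7126 in set4Δ cells, which overlapped, with -0.11 (adjusted p = 0.993).

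AFT2, the paralog of AFT1, stood at 1094, 1120.3 and 1134 normalized counts in wild-type and 1459, 1403 and 1462 in set4Δ cells in hypoxia, tight groups far apart for their spread, with a log2 fold change of 0.37 (SE 0.06, adjusted p = 0.0505). In air its counts were 639, 591 and 638 in wild-type and 592, 596 and 653 in set4Δ cells (-0.02, adjusted p = 0.996). AFT1 itself differed by 0.11 in hypoxia, with a 95% interval of -0.15 to 0.37.

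MRS4 stood at 1584, 1405 and 1227 normalized counts in wild-type and 1942, 1833 and 1763 in set4Δ cells in hypoxia, with no overlap, and differed by 0.40 (SE 0.11, adjusted p = 0.179). FET3 was the member furthest down. It stood at 6086, 5472 and 4259.8 in wild-type and 4255, 3972 and 3185 in set4Δ cells, where the highest set4Δ library lay just below the lowest wild-type library, and it differed by -0.47 (SE 0.17, adjusted p = 0.307). FTR1 did not move with it, at 0.13 with a 95% interval of -0.12 to 0.38. The ratio of FET3 to FTR1 counts was 1.34 to 1.52 in set4Δ cells in hypoxia, below the 1.94 to 2.37 of wild-type cells, with no overlap. In air the ranges overlapped, at 3.65 to 4.10 and 3.54 to 3.81. The ratio was not tested, and how many other pairs of genes separate in this way was not counted.

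The other members with an unadjusted p of at most 0.05 in hypoxia were ARN1 (0.39), ISU2 (0.30), FRE2 (0.26) and SMF2 (0.17), with adjusted p-values between 0.29 and 0.379. ARN1, like SIT1, carries siderophores, and its groups overlapped. The further members with no overlap in hypoxia were FRE2, SMF2, FET5 and MRS3, all higher in set4Δ cells, and CCC2, which stood at 1884, 1963 and 1767 normalized counts in wild-type and 1720.4, 1676 and 1597 in set4Δ cells. Among the other genes that fell far in hypoxia, the genotypes overlapped for FRE1, ENB1, FRE7 and CTR1. FRE1 differed by 0.04 (95% interval -0.16 to 0.24), ENB1 by 0.04 (-0.35 to 0.43), FRE7 by 0.11 (-0.52 to 0.74) and CTR1 by -0.21 (-0.44 to 0.01). The interval of FRE7, the gene with the fewest reads, is wide.

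**Figure D4:**
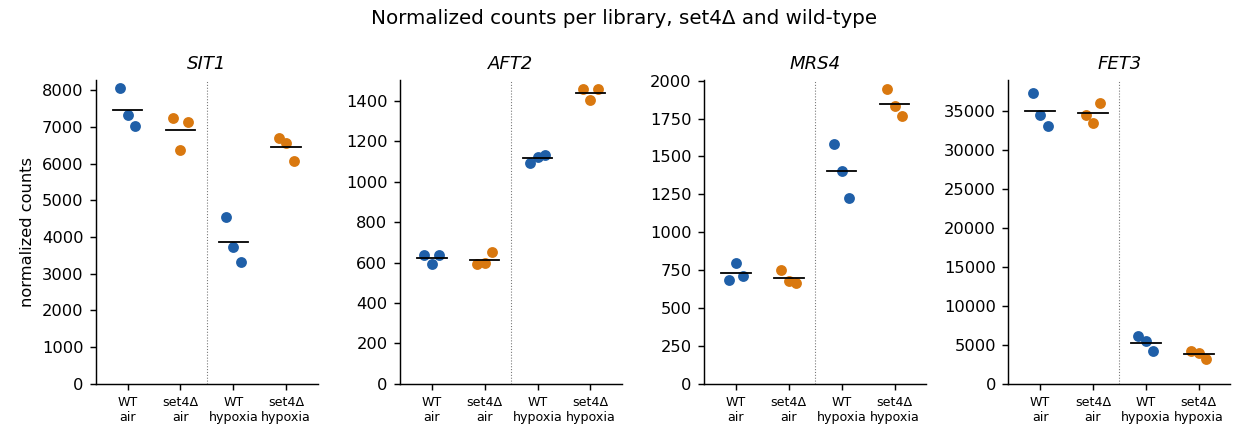
Normalized counts per library of SIT1, AFT2, MRS4 and FET3 in wild-type (blue) and set4Δ cells (orange), in air and in hypoxia on either side of the dotted line, which come from tables normalized separately; black lines mark the mean of 3 libraries and axes start at 0. In hypoxia the 3 set4Δ libraries of SIT1 lie between 6064 and 6709 and the wild-type ones between 3323 and 4548, and in air the genotypes overlap in all 4 panels.

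The difference between the effect of the deletion in hypoxia and in air was tested as an interaction over all 12 libraries. It was called for 2 members, SIT1 and AFT2, both positive, where 0.929% of all genes were called in that direction, and for no member in the other direction, where 0.432% were. For SIT1 the difference was 0.85 (SE 0.15, adjusted p = 0.0182) and for AFT2 0.38 (SE 0.08, adjusted p = 0.0483). MRS4 followed with 0.45 and an adjusted p of 0.176, SMF2 with 0.22 (0.223) and FET3 with -0.47 (0.347). The SIT1 call was lost without library 1 or 2 of wild-type cells in air, library 2 of set4Δ cells in air or library 1 of set4Δ cells in hypoxia (adjusted p of 0.0511 to 0.062), with values from 0.79 to 0.86. The AFT2 call was lost in each of the 12 fits without 1 library (0.35 to 0.41, adjusted p of 0.052 to 0.139). The 4 comparisons share libraries, so that they are not independent of each other.

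**Figure D5:**
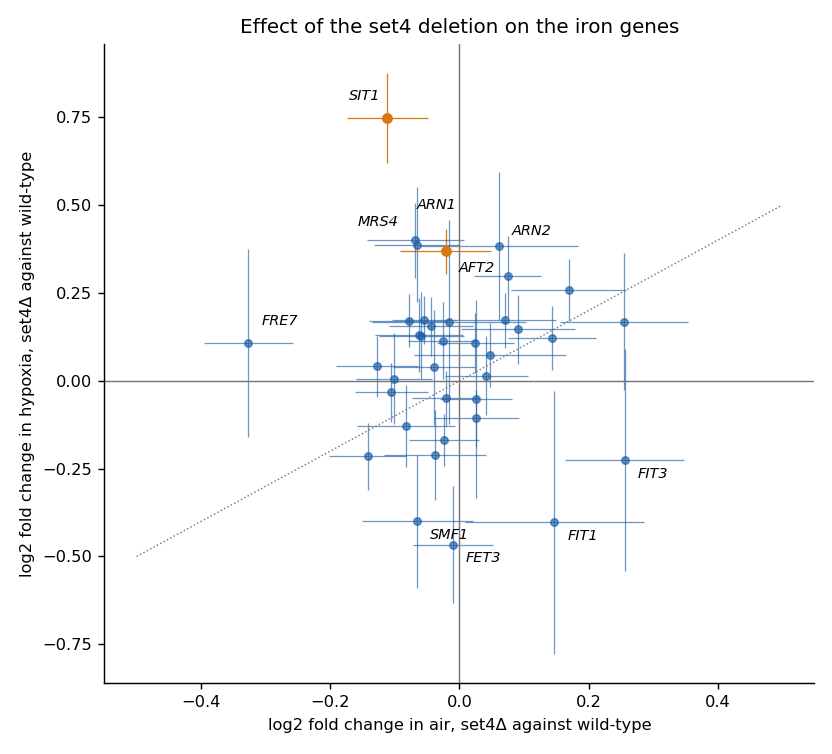
Log2 fold change of set4Δ against wild-type cells in air (horizontal) and in hypoxia (vertical) for the 37 members, with standard errors from limma and 3 libraries per group; the dotted line marks equal effects and orange marks SIT1 and AFT2. SIT1 lies highest at 0.75, FET3 lowest at -0.47, and FRE7 furthest left at -0.33.

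Set4 has been studied at chromosome ends, and 12 of the 37 members lie within 40 kb of one on the R64 assembly. These are FRE2, FET4, FIT1, FIT2, FIT3, ARN1, ARN2, SIT1, ENB1, FRE3, FRE5 and FRE6. FRE3, FIT2, FIT3 and FRE5 sit side by side near the right end of chromosome XV, from 1055545 to 1063648, and SIT1 lies 27.7 kb from the left end of chromosome V. In the response of wild-type cells these 12 members had a median log2 fold change of -0.92, with 10 values below 0 and 5 called lower, whereas all 478 tested genes within 40 kb had a median of 0.60, with 181 called higher and 44 lower. The 25 members further inside had a median of 0.04 beside -0.05 for all genes there. In set4Δ cells the medians were -0.55 for the 12 members and 0.68 for all genes near the ends. Between the genotypes in hypoxia the 12 had a median of 0.08, with 8 values above 0 and none called, beside 0.04 and 16 called higher among 486 genes, and the 25 others had a median of 0.11. The neighbours FRE3, FIT2, FIT3 and FRE5 did not move alike, since FIT2 and FIT3 fell in hypoxia while FRE5 was higher and FRE3 showed no detectable change.

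Genes of the same pathways outside the 37 were read from lists of known function. Of the 4 further Aft1 targets, HMX1, the heme oxygenase, rose by 2.51 on the log2 scale in wild-type and 1.74 in set4Δ cells and VHT1, a biotin transporter, by 2.15 and 2.22. COT1, a vacuolar zinc transporter, had log2 fold changes of 0.80 in wild-type and 1.29 in set4Δ cells and passed the fold threshold in the latter, and its interaction (0.49, adjusted p = 0.0515) was not called. The interaction of HMX1 went the other way (-0.76) and was not called either. Thus 2 of 4 were called higher in wild-type and 3 of 4 in set4Δ cells, where 18.1% and 18.6% of all genes were. No gene of that list was called lower. Among 12 iron-sulfur proteins 5 were called higher and 1 lower in wild-type cells, and 5 higher and 2 lower in set4Δ cells, where the shares of all genes were 18.1% and 14.4%, and 18.6% and 15.5%. MET5, a subunit of sulfite reductase, rose by 3.64 on the log2 scale, BIO2, biotin synthase, by 2.29 and LEU1, an enzyme of leucine synthesis, by 2.27 in wild-type cells, whereas ACO1, the aconitase of mitochondria, had a log2 fold change of -1.72. Of 16 further genes of mitochondrial cluster assembly 3 were called in wild-type cells, against 32.5% of all genes, where ISA1, a late-acting assembly factor, rose by 1.67 on the log2 scale, GGC1, a GTP carrier, rose by 1.05 and MGE1, a partner of the cluster transfer chaperone, had one of -1.47. Of 10 genes of cytosolic assembly, NAR1 rose by 1.49 on the log2 scale and no other was called in wild-type cells, against the same 32.5%. Of the 5 genes of iron sensing by Aft1 none was called in either genotype.

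Of 6 regulators beside Aft1 and Aft2, 4 were called higher in wild-type cells, where 18.1% of all genes were, and 5 in set4Δ cells, where 18.6% were. YAP5, an activator of genes that answer high iron, rose by 1.76 on the log2 scale in wild-type cells, the zinc regulator ZAP1 by 1.60 and the heme-dependent activator HAP1 by 1.53. The repressors of hypoxic genes ROX1 and MOT3 had log2 fold changes of 0.98 and 0.86 and came short of the fold threshold, which ROX1 passed in set4Δ cells (1.28).

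MAC1, the activator of CTR1, FRE1 and FRE7, went from 598, 666 and 596 to 1465, 1415 and 1414 normalized counts in wild-type cells, a log2 fold change of 1.21 (adjusted p = 1.34e-06), while those targets fell. MAC1 was also the only gene of these lists that was called between the genotypes. In hypoxia it stood at 1439, 1393 and 1383 in wild-type and 2111, 1951 and 1972 in set4Δ cells, with no overlap and a log2 fold change of 0.52 (SE 0.07, adjusted p = 0.0252). In air the difference was 0.06 (adjusted p = 0.994), and the interaction was 0.44 (SE 0.09, adjusted p = 0.0312). The call in hypoxia was lost without any of 5 libraries, the exception being library 3 of set4Δ cells (adjusted p of 0.0637 to 0.172 without the others, 0.0325 without that one). The call of the interaction was lost when libraries were scaled to equal totals (adjusted p = 0.0791) and with a replicate block (0.0571). It was also lost without any library other than library 3 of either genotype in hypoxia (0.0534 to 0.0938). Of 6 genes of copper handling, REE1 was called lower, with log2 fold changes of -2.75 in wild-type and -2.37 in set4Δ cells, and no other gene of that list was called in either, where 32.5% and 34.1% of all genes were called.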

How the data were processed

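RNA was isolated from 12 samples of yeast, depleted of ribosomal RNA and sequenced as stranded libraries. Upstream, the authors used Trimmomatic 0.36 for trimming, STAR 2.5.2b for alignment and Subread 1.5.2 (featureCounts) for gene counts. Which genome build, strand setting and treatment of multiply placed reads they chose was not given in the sources used here. The deposited values are a signal of gene counts that the authors divided by DESeq2 size factors, separately in each of 4 tables (set4Δ against wild type in air and in hypoxia, and hypoxia against air in each genotype). The deposited fold changes and p-values of the authors' own comparisons were not used. The steps of the values gave whole reads for 100% of values in all 24 columns (within 0.001).

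The tables for air and hypoxia number replicates 1 and 3 the other way round than the response tables. Libraries were matched by identical reads and carry the numbers of the response tables. For air, 1 wild-type column was shifted against its genes, and the values of that library were taken from its reads in the response table. For air 8 genes, and for hypoxia 1 unnamed entry, were left out.

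Each comparison was tested with limma 3.58.1 (R 4.3.3) on log2(value + 1) with a mean-variance trend, so that fold changes of low genes are understated. The tests took genes whose mean reached 10 in one group or the other (5814 in air, 5875 in hypoxia, 6033 and 6058 in the wild-type and set4Δ responses, 6025 for the difference), with Benjamini-Hochberg adjustment over all of them. Calls were made at an adjusted p up to 0.05 and, in the responses, a log2 change of 1 or more either way. The difference was an interaction over 12 libraries brought to 1 scale by median ratios. Alternatives were other pseudocounts, filters and scalings, robust estimation, a replicate block, a fit over all 12 libraries, each library left out, and edgeR 4.0.16 and DESeq2 1.42.0 on the recovered whole reads. The tests were checked on simulated data.

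Named genes were the 37 members, SET4, the regulators outside them and up to 4 called genes of each further list by size of the change; STE2, STE3, the motif words and the stretches printed were chosen after values were seen. The members and lists were chosen with earlier results of these data known. The ratios between members were of picked pairs and were not tested. CUP1-1, CUP1-2 and CRS5 were not analysed here.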

Additional observations from a re-analysis of the deposited data

Results flagged for a closer look

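For 2 genes the effect of the deletion differed between hypoxia and air in the interaction test of limma. For SIT1 the log2 fold change of set4Δ against wild-type cells was 0.75 in hypoxia (adjusted p = 0.0503) and -0.11 in air, and the difference tested over all 12 libraries was 0.85, with all 3 set4Δ libraries above all 3 wild-type libraries in hypoxia. For AFT2 the difference was 0.38, again with no overlap between the genotypes in hypoxia. The AFT2 call was lost in each of the 12 fits without 1 library and with equal totals, edgeR and a replicate block. The SIT1 call was lost in 4 of the fits without 1 library. No group of these data has more than 3 libraries, so that single libraries that stand apart were not tested for.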

How the results depend on the processing

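With 3 libraries per group and whole-culture RNA, small changes of single members could be missed, and a miss of the threshold does not show equal levels. In the responses, counts of called iron genes and of all genes stayed within 1.5 times under every alternative; without 1 library, 2 to 3 iron genes were higher and 7 to 11 lower in wild-type cells, and 4 to 5 and 9 in set4Δ cells. The call of ARN2 in wild-type cells was lost under equal totals, quantile normalization, edgeR and DESeq2. Quantile normalization moved the median of all genes by -0.14 in wild-type and -0.13 in set4Δ responses.

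In air, 1 gene was called higher and 2 lower. None was higher with a minimum mean of 50, equal totals, quantile normalization or edgeR (0 each), 5 were with DESeq2 and 2 with the block. DESeq2 called 4 lower, of which 1 was an iron gene, and quantile normalization, robust estimation and the 12-library fit called 1. Without 1 library, 0 to 5 were higher and 1 to 4 lower, with 0 iron genes in either direction. In hypoxia, 48 genes were higher and 23 lower. DESeq2 called 160 and 85, and the 12-library fit 173 and 132. Of the iron genes edgeR and robust estimation called 1 higher, and DESeq2 and the 12-library fit called 3. Without 1 library, 14 to 61 genes were higher and 3 to 32 lower, with 0 iron genes. For the difference, 56 genes were positive and 26 negative, and DESeq2 called 110 and 62. Of the 2 iron genes, equal totals and edgeR kept 1, SIT1, and AFT2 had adjusted p-values of 0.104 and 0.0519. Without 1 library, 22 to 80 genes were positive and 9 to 43 negative, with 0 to 1 iron genes. The cause of these shifts was not tested.

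Values near 0 changed sign. Without 1 library, FET3 lay between -0.049 and 0.037 and AFT2 between -0.067 and 0.0034 in air. In hypoxia FIT2 lay between -0.030 and 0.31, FIT3 between -0.52 and 0.036 and FRE7 between -0.12 and 0.35. In the wild-type response FET4 lay between -0.14 and 0.013 and CTH1 between -0.078 and 0.053, in the set4Δ response SIT1 between -0.075 and 0.023 and FRE3 between -0.054 and 0.093, and for the difference FIT2 between -0.30 and 0.048. With equal totals FET4 (0.0068) and CTH1 (0.076) in wild-type and SIT1 (0.047) in set4Δ cells turned, with quantile normalization FET4 (0.061) and CTR3 (-0.37) in wild-type and SIT1 (0.20), FRE3 (-0.095) and CTR3 (-0.33) in set4Δ cells, and with edgeR CTH1 (0.0066) in wild-type and SIT1 (0.0013) in set4Δ cells.

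Same-numbered libraries of wild-type and set4Δ cells deviated together with r of -0.26, 0.18 and 0.02 in air and 0.03, 0.71 and 0.73 in hypoxia. Differently numbered libraries had r of -0.30 to 0.25 in air and -0.82 to 0.74 in hypoxia. All same-numbered values lay within these ranges, so that they do not decide whether the replicate numbers pair the samples. With a replicate block, 238 genes were called higher and 198 lower in hypoxia, among them 5 iron genes higher (SIT1, AFT2, MRS4, ARN1 and ARN2) and 1 lower (FET3), and the difference was called for 1 iron gene, SIT1.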
